A study of Mus musculus with 5 samples.

Results

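Macrophage marker transcripts were followed in libraries made from cultured cardiac fibroblasts (CF) of the mouse. The markers were Lyz2, Cd68, Csf1r, Adgre1, C1qa, C1qb, C1qc, Tyrobp, Fcer1g and Gpnmb, 10 of the 20365 gene names in the tables, chosen by name. Where a gene has several 3′ UTR intervals, the one whose CPM averaged highest over the labeled group stood for it, and all 10 genes had reads in every library. The CF came from hearts of healthy adult male C57Bl/6J wildtype mice, were freed from the tissue with collagenase perfused through the coronaries, and were grown to confluency. In the labeled group (n = 3), CF were cultured for 12 h with 0.1 mM S4U (4-thiouridine), which cells build into new RNA in place of uridine. In the unlabeled group (n = 2), CF were cultured alongside for 12 h without S4U, and RNA of both groups was alkylated. Alkylated S4U is read as C in place of T, so the T>C conversion rate, which is the conversions divided by the T positions covered by reads, rises with the new RNA in a transcript pool. For CF of operated hearts the study's methods describe magnetic removal of cells carrying CD31 (endothelial) or CD45 (leukocyte) before seeding, and they do not say whether the CF used here were depleted in the same way. The labels do not say whether a replicate number marks the same CF preparation in both groups.

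Macrophages reside in the healthy heart between its muscle cells and fibroblasts, where they take up debris and dying cells, and they depend on the growth factor CSF1, which fibroblasts make. CSF1 acts through the receptor tyrosine kinase CSF1R, and the transcription factor PU.1 (gene Spi1) drives much of the myeloid gene program. Several macrophage surface receptors lack a signaling tail of their own and pair with the small adaptors TYROBP (DAP12) and FCER1G, whose ITAM motifs recruit the kinase SYK. The C1QA, C1QB and C1QC chains assemble into C1q, the recognition part of complement component C1, and in many tissues macrophages are a main source of it. LYZ2 is a lysozyme that cuts bacterial cell walls, CD68 a membrane glycoprotein of lysosomes and endosomes, ADGRE1 the F4/80 antigen, and GPNMB a membrane glycoprotein of lysosome-laden phagocytes that other cell types can express as well.

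Counted reads, with 1 interval for each gene, came to between 506045 and 1842863 in a library. Labeled replicate 3 had the fewest reads, and its 10 markers together rested on 132 of them, against 395 to 568 in the other libraries. Levels below are CPM recomputed over these counted reads. The libraries were made from transcript 3′ ends and levels were not scaled to length, so a level was compared between libraries for 1 gene or 1 list, and mean levels of different genes are printed as read levels only, with no comparison of transcript amounts. Poisson and Wilson intervals are 95% intervals, and the rate that a count of 0 allows is 3 counts divided by the total. Both cover counting error only, and for T>C rates they treat T positions as independent, although conversions on 1 read are not. In RNA from whole cultures, fewer cells of a type and less RNA per cell cannot be told apart.

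The intervals lie on GRCm39 in the 3′ UTR of their genes, at chr10:117113446-117114025 for Lyz2, chr7:30116835-30117007 for Tyrobp and chr1:171057141-171057433 for Fcer1g. The C1q genes neighbour each other on chromosome 4, with intervals at chr4:136623227-136623464 for C1qa, chr4:136607437-136607599 for C1qb and chr4:136617112-136617353 for C1qc. The others are chr11:69555039-69555196 for Cd68, chr17:57790121-57790527 for Adgre1 and chr6:49033249-49035116 for Gpnmb. For Lyz2, all 4 annotated coding transcripts end 1889 bases beyond the interval, so part of its 3′ end reads may not have been counted. The same holds for 5 of 7 coding transcripts of Csf1r, 8 of 10 of C1qb and 3 of 5 of C1qc, whose ends lie beyond their intervals. For Gpnmb 1 of 4 coding transcripts ends 12747 bases beyond, and for C1qa and Tyrobp 1 of 5 each, by 4 and 3 bases. A gene on the opposite strand overlaps the intervals of Lyz2, Cd68, C1qb and Gpnmb, and Gm71631 overlaps that of Fcer1g on the same strand, whose reads could not be separated.

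RefSeq promoter sequences of GRCm38.p6, 250 bases before to 50 after a start site, were at hand for 6 of the 10 genes (Lyz2, Cd68, C1qb, C1qc, Fcer1g and Gpnmb). They are shown because PU.1 and other Ets factors bind a core with the letters AGGAAG, and AP-1 factors the letters TGACTCA. Both were chosen after the sequences were seen and searched on both strands, where they read CTTCCT and TGAGTCA. The Ets letters are in capitals in the stretches of Lyz2, C1qb, C1qc and Fcer1g, and the AP-1 letters in that of Cd68. All are written 5′ to 3′ on the strand of the gene, which is the minus strand for each.
Lyz2 chr10:117282356-117282381: tcggtaggaaCTTCCTgttttgcaca
C1qb chr4:136886237-136886262: ggacctgaaaCTTCCTgagggcagca
C1qc chr4:136893093-136893118: acggcagacaCTTCCTcattttggca
Fcer1g chr1:171234378-171234403: tctgtagtacAGGAAGgggaaggggc
Cd68 chr11:69666178-69666204: ctgaggtgtcTGAGTCAggtttggggt
Relative to the start site, these matches begin at base -99 for Lyz2, -52 for C1qb, -194 for C1qc, -44 for Fcer1g and -24 for Cd68. The Ets letters were present in 4 of the 6 promoters and in 35.4% of all 32851 promoters of the table. The AP-1 letters were present in those of Cd68 and Gpnmb and in 5.20% of all promoters. The matches describe the sequence and do not show that a factor was bound.

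The receptor Csf1r had a level of 9.52, 19.2 and 15.8 in labeled replicates 1 to 3, and of 2.17 and 12.0 in unlabeled replicates 1 and 2. Unlabeled replicate 1 was the lowest, with 4 reads, while the other 4 libraries had between 8 and 23. Labeled and unlabeled libraries overlapped. Its interval is chr18:61263553-61264211 on GRCm39. Csf1, its ligand, had a level of 1002, 637 and 672 in labeled and 588 and 408 in unlabeled libraries, so every labeled library was above both unlabeled ones. Il34, the other ligand of CSF1R, had a mean level of 17.0 over the 5 libraries. The transcription factor gene Spi1 had 13 reads in all, none of them in labeled replicate 1 or unlabeled replicate 1. Irf8, a partner of PU.1, had no read in labeled replicate 1 and a level of 7.90 to 14.1 in the others. Maf, a transcription factor of mature macrophages, had a mean level of 25.0. The CSF1 axis list held 14 genes including Csf1r, of which 10 were tested and 0 passed edgeR's test between labeled and unlabeled libraries at an adjusted p below 0.05, while 2 reached an unadjusted p below 0.05, against 5.97% of all 9807 genes tested. These were Csf1, with a log2 fold change of 0.71 ± 0.30 (SE), and Maf, with -1.31 ± 0.39 (SE).

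Lyz2 varied most. Its level was 2.54, 27.6 and 17.8 in labeled and 3.26 and 30.1 in unlabeled libraries, a ratio of 11.9 between the highest and the lowest. The counts behind these levels were 4, 33 and 9 reads and 6 and 30 reads. All 4 coding transcripts of Lyz2 end 1889 bases beyond the counted interval, and the part of this in its levels was not tested. Of 13315 genes with a labeled read and an annotated coding end, 6.08% had every such end over 50 bases beyond the interval. The Poisson intervals of the lowest libraries (0.692 to 6.50 for labeled replicate 1 and 1.19 to 7.09 for unlabeled replicate 1) did not overlap those of labeled replicate 2 (19.0 to 38.8) and unlabeled replicate 2 (20.3 to 43.0). Labeled and unlabeled libraries overlapped.

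The ITAM adaptors followed a similar order. Fcer1g had a level of 8.88, 25.1 and 17.8 in labeled and 5.43 and 27.1 in unlabeled libraries. Tyrobp had a level of 4.44, 10.9 and 3.95 in labeled and 2.71 and 14.1 in unlabeled libraries, from 2 to 14 reads each. For both genes, labeled replicate 2 and unlabeled replicate 2 were the highest and unlabeled replicate 1 was the lowest. Of the receptors that pair with these adaptors, Fcgr3, an Fc gamma receptor, had a mean level of 17.0, Clec5a, a myeloid lectin, 7.82, and Trem2, a lipid-sensing receptor, 7.17. Syk, the kinase recruited by phosphorylated ITAM motifs, had 15 reads in all, and the Src family kinase Lyn had a mean level of 13.5. Of the 24 genes of the ITAM adaptor list, 4 (Trem1, Sirpb1a, Siglech and Fgr) had no read and 13 had a read in every library. Of the 6 tested, 0 passed edgeR's test and 0 reached an unadjusted p below 0.05, against 0% and 5.97% of all 9807 genes tested.

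**Figure D1:**
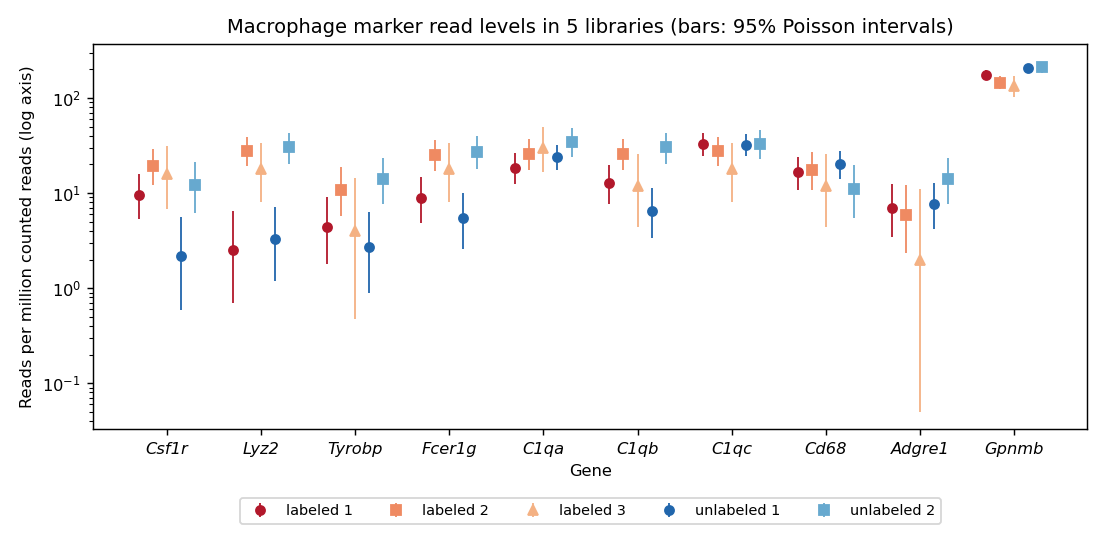
Level of each marker in CPM over the counted reads (log axis) in 3 labeled and 2 unlabeled libraries, with exact 95% Poisson intervals as bars. Gpnmb spans 132 to 211, while Lyz2 spans 2.54 to 30.1.

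The 3 chains of C1q did not keep 1 ratio of reads across libraries. C1qa had a level of 18.4, 25.9 and 29.6 in labeled and 23.9 and 34.1 in unlabeled libraries. C1qb had a level of 12.7, 25.9 and 11.9 in labeled and 6.51 and 30.1 in unlabeled libraries. C1qc had a level of 33.0, 27.6 and 17.8 in labeled and 32.0 and 33.1 in unlabeled libraries. C1qb thus differed 4.63-fold between its highest and lowest library, against 1.86-fold for both C1qa and C1qc. Of all reads on the 3 chains, C1qb held 12 of 115 in unlabeled replicate 1 (10.4%, Wilson interval 6.07 to 17.4%) and 30 of 97 in unlabeled replicate 2 (30.9%, 22.6 to 40.7%). In labeled libraries it held 19.8%, 32.6% and 20.0%. The C1qb intervals of unlabeled replicates 1 and 2 did not overlap, and those of the labeled libraries overlapped each other. Most coding transcripts of C1qb end beyond the counted interval, and the part of this in the ratio was not tested.

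**Figure D2:**
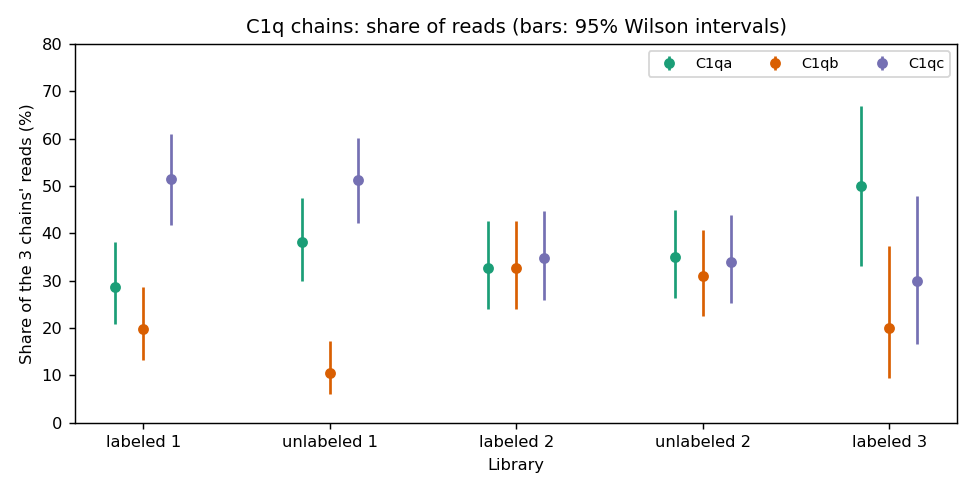
Share of the reads on the 3 C1q chains that fell on each chain (%), by library, with 95% Wilson intervals as bars. C1qb holds 10.4% in unlabeled replicate 1 and 19.8% in labeled replicate 1, against 30.9% and 32.6% in the libraries numbered 2.

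Of the 16 genes of the classical complement list, the 3 C1q chains included, 15 were read in every library, and the exception, Cd46, had 5 reads in all. The proteases C1ra and C1s1, which bind C1q, had mean levels of 270 and 232, C3, the central complement protein, 689, and C4b 20.5. The inhibitor Serping1 had a mean level of 1019. Serping1 had the ordering of C1qb, with 688 and 720 in the libraries numbered 1 and 1327 and 1429 in those numbered 2. C1ra had the opposite order, with 315 and 369 against 213 and 245. Of the 15 genes tested, 8 had the ordering of C1qb and 4 the opposite one, against 27.6% and 34.6% of all genes tested. The 8 include C1qb itself and C1qa, markers in which the ordering was noticed, so part of this count was fixed beforehand. Of these 15, 0 passed edgeR's test and 0 reached an unadjusted p below 0.05, against 0% and 5.97% of all 9807 genes tested.

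Cd68, Adgre1 and Gpnmb had other profiles. Cd68 had a level of 16.5, 17.6 and 11.9 in labeled and 20.1 and 11.0 in unlabeled libraries, a ratio of 1.82 between the highest and the lowest. Adgre1 had a level of 6.98, 5.86 and 1.98 in labeled and 7.60 and 14.1 in unlabeled libraries. Its lowest value rested on 1 read in labeled replicate 3 and both unlabeled libraries were above all labeled ones. Gpnmb had a level of 174, 145 and 132 in labeled and 205 and 211 in unlabeled libraries, from 67 to 377 reads each, and both unlabeled libraries were above all labeled ones here too. Gpnmb held between 43.8% and 66.4% of the reads on the 10 markers, so it dominated their sum.

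The summed level of the 10 markers was 287, 331 and 261 in labeled (293 ± 35.2, SD, n = 3) and 308 and 417 in unlabeled libraries (362 ± 76.7, SD, n = 2), a ratio of 1.60 between the highest and the lowest library. Without Gpnmb it was 113, 186 and 128 in labeled and 104 and 206 in unlabeled libraries, a ratio of 1.99. Labeled and unlabeled libraries overlapped in both sums. Set against the summed level of the 12 fibroblast genes, the 9 markers without Gpnmb came to 0.265, 0.435 and 0.278% in labeled and 0.297 and 0.539% in unlabeled libraries.

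Whether S4U went along with a changed level of these transcripts was asked by comparing labeled with unlabeled libraries. In edgeR's quasi-likelihood test, 9 of the 10 markers passed the filter on low counts (Adgre1 did not), and 0 of these 9 passed at an adjusted p below 0.05. Over all 9807 genes tested the share called was 0%, so the members' count equals the background. At an unadjusted p below 0.05 the test gave 0 markers and 585 of all genes (5.97%). DESeq2 gave an adjusted p for 3 of the 9 markers (C1qa, C1qc and Gpnmb), of which 0 passed, and for 6955 of all genes, of which 20 (0.288%) did. The other 6 markers could not be called by DESeq2, and none reached an unadjusted p below 0.05 in it. The largest log2 fold change among the 9 was that of Csf1r, 1.22 ± 0.78 (SE), with an interval from -0.62 to 3.06 and an adjusted p of 0.984. Without unlabeled replicate 2 it was 2.82 ± 0.87 (SE) with an unadjusted p of 0.0114 and an adjusted p of 0.782, and without unlabeled replicate 1 it was 0.30 ± 0.69 (SE). Gpnmb, with the most reads, had a log2 fold change of -0.39 ± 0.24 (SE), with an interval from -0.95 to 0.17 and an adjusted p of 0.971. For Lyz2 the interval ran from -2.59 to 2.65 and so holds changes of several fold in both directions. On counts simulated with these means and library sizes, the same test found 78 of the 200 genes, among 9495, whose simulated log2 fold change was 2. Every simulated gene had the same dispersion and no order by library number, so this share is not the power of the test on the real counts. Labeled and unlabeled libraries did not overlap in 1 of the 9 tested markers (Gpnmb) and in 21.3% of all genes tested.

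A shared order of libraries that cuts across the labeled and unlabeled groups was seen in 6 of the markers. Csf1r, Lyz2, Tyrobp, Fcer1g, C1qa and C1qb were higher in both libraries numbered 2 than in both numbered 1, an ordering noticed after the values were seen. These were 6 of the 9 markers tested, against 27.6% of all genes tested, while the opposite order was seen in 0 of the 10 markers and in 34.6% of all genes tested. Not every marker had the ordering beyond counting error. For C1qa the Poisson intervals of unlabeled replicate 1 (17.3 to 32.1) and labeled replicate 2 (17.6 to 36.8) overlapped. For Csf1r those of labeled replicate 1 (5.33 to 15.7) and unlabeled replicate 2 (6.23 to 21.0) did. Tyrobp and C1qb also had such overlaps, while Lyz2 and Fcer1g had none. The ordering depends on the scale of the levels. On the deposited CPM it held in 4 markers (Lyz2, C1qb, Tyrobp and Fcer1g), while Cd68, C1qc and Gpnmb had the opposite order. On that scale 12.4% of all genes had the ordering and 61.2% the opposite one, and the median log2 ratio of the libraries numbered 2 to those numbered 1 over all genes was -0.66, against -0.10 on the counted reads. Summed over these 6 genes, the level was 56.5 in labeled replicate 1 and 44.0 in unlabeled replicate 1, 135 in labeled replicate 2 and 148 in unlabeled replicate 2, and 96.8 in labeled replicate 3. The ratio of the mean of the libraries numbered 2 to the mean of those numbered 1 was 9.96 for Lyz2, 3.65 for Fcer1g, 3.49 for Tyrobp, 2.92 for C1qb, 2.68 for Csf1r and 1.42 for C1qa. It was 0.938 for Gpnmb, 0.934 for C1qc, 0.782 for Cd68 and 1.37 for Adgre1. The levels of these 4 did not follow the 6.

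**Figure D3:**
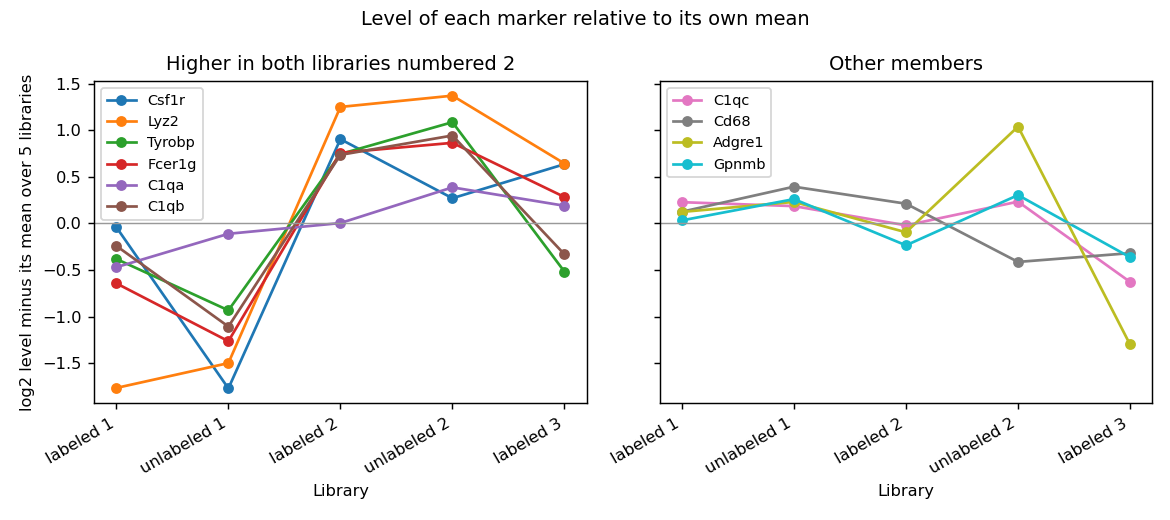
Log2 level of each marker minus its own mean over the 5 libraries (pseudocount of 1 CPM), with lines joining the values of 1 gene. Left, the 6 markers that are higher in both libraries numbered 2, among which Lyz2 runs from -1.77 to 1.37. Right, the other 4, among which Gpnmb stays between -0.36 and 0.30.

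Centred on their own means over the 5 libraries, 8 of the 10 markers were highest in unlabeled replicate 2, as were 19.5% of all genes tested, and the exceptions were Cd68, highest in unlabeled replicate 1, and Csf1r, highest in labeled replicate 2. The lowest library was unlabeled replicate 1 for Csf1r, C1qb, Tyrobp and Fcer1g, labeled replicate 1 for Lyz2 and C1qa, labeled replicate 3 for Adgre1, C1qc and Gpnmb, and unlabeled replicate 2 for Cd68. Without unlabeled replicate 2, at most 5 markers shared a highest library, labeled replicate 2, which was the highest for 23.1% of all genes tested. The root mean square difference of a marker from the mean profile of the other 9, in log2 units, was smallest for C1qb (0.36), C1qa (0.38), Tyrobp (0.38) and Fcer1g (0.49) and largest for Lyz2 (1.10). Its median over the markers was 0.58. Of 9037 other genes with a mean level of at least 10, 4282 were nearer to the mean profile of the markers than this median.

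The 12 genes nearest to the mean profile of the markers, by root mean square difference over the 5 libraries, were Clns1a, Rcc1l, Plekha1, Dhx40, Smyd2, Vars, Abhd12, Thy1, Traf7, Mrpl57, Obsl1 and Ift46. Thy1, a surface glycoprotein in the fibroblast list, had a level of 202, 331 and 213 in labeled and 151 and 322 in unlabeled libraries. Clns1a, at a difference of 0.05, had a level of 40.6, 63.6 and 43.5 in labeled and 32.6 and 70.3 in unlabeled libraries. None of the 12 is in the resident macrophage or pan-leukocyte lists.

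The libraries numbered 1 and 2 also differed in other properties. The number of covered T positions per read over all genes was 18.3 and 19.3 in the libraries numbered 1, 20.6 and 21.5 in those numbered 2, and 20.9 in labeled replicate 3. It was higher in both libraries numbered 2 in 7 of the 10 markers and in 64.4% of 9747 tested genes with a read in every library. Of the 6 markers with the ordering of levels, 4 (Csf1r, C1qb, Tyrobp and Fcer1g) had it, as for Fcer1g with 10.6 and 12.4 against 19.8 and 20.0. Lyz2 did not, with 14.2 and 6.33 against 10.2 and 10.6, and neither did C1qa. Of the 4 markers without the ordering of levels, Cd68, Adgre1 and Gpnmb had it. Of 1377 tested genes with an interval of at most 300 bases, 35.9% had the ordering, and of 8430 with a longer one 26.2%. Of the markers, C1qa, C1qb, C1qc, Cd68, Tyrobp and Fcer1g have intervals of at most 300 bases. Markers of other cells had both orders. Of the 10 endothelial genes tested, 4 had the ordering of the 6 markers and 2 the opposite one, against the 27.6% and 34.6% over all genes. Pecam1 had 5.71 and 10.9 in the libraries numbered 1 and 27.6 and 41.2 in those numbered 2, while Eng had 664 and 531 against 279 and 214. The ordering was present in 4 of 12 fibroblast genes, 4 of 14 resident macrophage genes and 1 of 6 pan-leukocyte genes tested, and the opposite one in 4, 3 and 0 of them. Notch3, the 1 pericyte gene tested, had 11.4 and 23.3 against 42.7 and 82.3. The other genes of its list had few reads, from 1 (Myh11) to 24 (Abcc9) over all libraries, so this is the order of Notch3 alone. The part of these library properties and other cells in the levels of the markers was not tested.

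T>C conversion rates show whether the marker transcripts were made during the 12 h with S4U. In a beta-binomial likelihood-ratio test, 9 of the 10 markers had a higher rate in labeled than in unlabeled libraries at an adjusted p below 0.05, against 94.5% of all 19240 intervals tested. Tyrobp was the exception, with 2 conversions in 237 covered T positions of the labeled libraries and an adjusted p of 0.104. Its rates were 0.0196, 0 and 0.05 in labeled replicates 1 to 3, the last from 20 covered T positions. Without labeled replicate 2, Tyrobp did pass this test (adjusted p = 0.0204). The difference in rate was then 0.0282, against 0.00844 with all libraries. The markers' share is close to the background.

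Lyz2 was read with 0 of 57, 7 of 338 and 1 of 108 covered T positions converted in labeled libraries, and 0 of 355 in the unlabeled ones together, which allows a rate of up to 0.00845. Csf1r had rates of 0.0482, 0.0258 and 0.0288 in labeled libraries, a mean of 0.0343 ± 0.0121 (SD, n = 3), and 0 conversions in 274 unlabeled T positions. Fcer1g had 0.0336, 0.0286 and 0.0368, the narrowest spread relative to its mean among the markers covered at over 100 T positions in each library, Gpnmb left out (0.0330 ± 0.00412, SD, n = 3), and 0 conversions in 663 unlabeled T positions. These are the CSF1 receptor and an ITAM adaptor, and every labeled library carried conversions in both. For Fcer1g the adjusted p was 2.65e-04 and for Csf1r 0.00135.

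C1qa had rates of 0.0244, 0.0266 and 0.0146 in labeled libraries and 0 conversions in 1377 unlabeled T positions (adjusted p = 2.57e-04). C1qb had 0.0381, 0.00930 and 0.0568, on 88 to 430 covered T positions. C1qc had 0.0318, 0.0242 and 0, the last from 143 covered T positions, which allows up to 0.0210. Pooled over the 3 chains, the rate was 0.0308, 0.0210 and 0.0178 in labeled and 0.000930 and 0.00116 in unlabeled libraries. Cd68 had 0.0461, 0.0196 and 0.0132 in labeled libraries and 1 conversion in 553 unlabeled T positions. Adgre1 had 0.0133, 0.0253 and 0, the last from 28 covered T positions, and 0 conversions in 594 unlabeled T positions. For none of these genes can the labeled libraries be ordered beyond counting error from the overlapping Wilson intervals, except C1qb, where labeled replicate 2 (0.00362 to 0.0237) did not overlap labeled replicate 3 (0.0245 to 0.126). The conversions of C1qb lay on few reads, the 4 of labeled replicate 2 on 1 of 31 reads, the 8 of labeled replicate 1 on 7 of 20 and the 5 of labeled replicate 3 on 3 of 6.

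Gpnmb stood apart in its unlabeled rate. It was 0.00964 in unlabeled replicate 1 (59 of 6122 covered T positions) and 0.00573 in unlabeled replicate 2 (22 of 3841), a mean 15.1 times the median of 0.000507 over 2105 genes that each library covered at 1000 or more T positions, and above 99.7% of them. The 59 conversions of unlabeled replicate 1 lay on 59 reads and the 22 of unlabeled replicate 2 on 22 reads, 1 for each read that had any. In labeled libraries the rate was 0.0130, 0.0123 and 0.0110 (0.0121 ± 0.00102, SD, n = 3), so that only 2.88% of 2121 genes covered as deeply had a lower one. The difference between the mean rates of the groups was 0.00438, against a median of 0.0381 over those 2105 genes. It passed the beta-binomial test (adjusted p = 0.0283), and did not pass in limma on the log odds (adjusted p = 0.138), without unlabeled replicate 2 (0.117), without labeled replicate 1 (0.0968) or without labeled replicate 2 (0.0681). The tables do not give the position of a conversion within an interval.

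**Figure D4:**
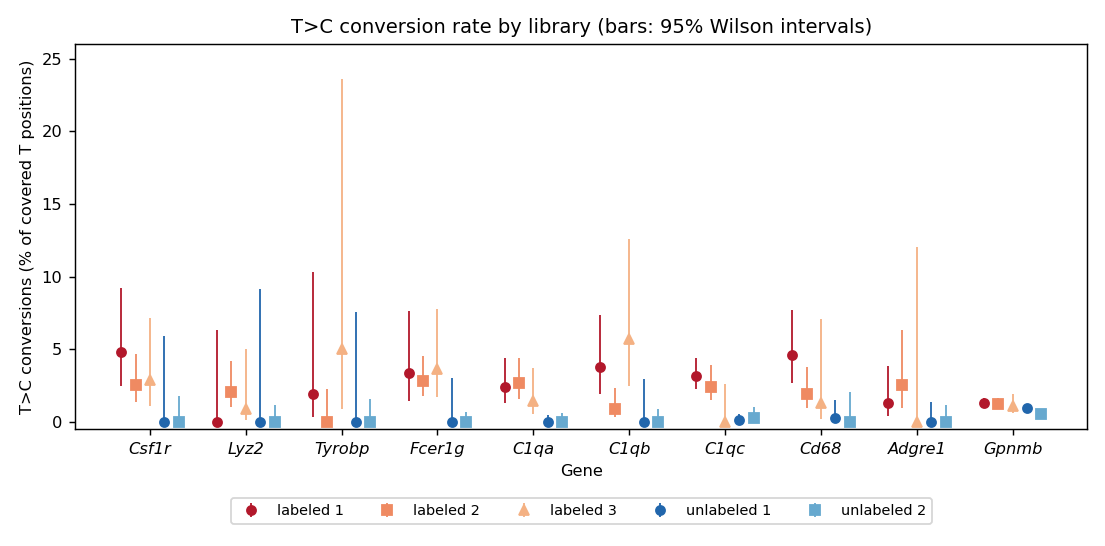
T>C conversions in percent of covered T positions for each marker and library, with 95% Wilson intervals as bars. Gpnmb has rates of 0.00964 and 0.00573 in unlabeled and of 0.0110 to 0.0130 in labeled libraries, as fractions, while the other 9 markers together had 5 conversions in 6590 unlabeled T positions.

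Without Gpnmb, the 9 other markers together had a rate of 0.0313, 0.0218 and 0.0212 in labeled (0.0248 ± 0.00568, SD, n = 3) and 0.000979 and 0.000567 in unlabeled libraries. The 12 fibroblast genes together, most of whose covered T positions lie in collagen transcripts, had 0.0214, 0.0234 and 0.0214 in labeled libraries, the 25 resident macrophage genes 0.0264, 0.0213 and 0.0183, and the 12 pan-leukocyte genes 0.0327, 0.0397 and 0.0363. The median over the 2121 genes that each labeled library covered at 1000 or more T positions was 0.0388, with quartiles of 0.0343 and 0.0423. Gpnmb was the only marker covered that deeply. Without unlabeled replicate 2, which held most unlabeled T positions of several markers, 5 of the 10 markers passed the test, against 88.4% of all intervals, and Lyz2, Csf1r, C1qb and Gpnmb no longer did. C1qc did not pass without labeled replicate 1 (adjusted p = 0.0579), labeled replicate 2 (0.0919) or unlabeled replicate 1 (0.0615), and Lyz2 did not pass without labeled replicate 2 (0.136). In limma on the log odds, C1qc (adjusted p = 0.0519) and Lyz2 (0.130) did not pass either. Cd68, Adgre1, C1qa and Fcer1g passed in every setting in which they were tested.

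Other genes of macrophages were read too, while several defining ones were close to 0. The summed level of the 25 resident macrophage genes was between 270 and 353 per library, with mean levels for the chemokine Ccl6 (42.7), the receptor chain Csf2ra (40.6) and the lysosomal protease Ctss (38.6). Of these 25, Timd4 and Siglec1 had no read, Cd163 had 2 reads and Lyve1, a marker of a resident subset and of lymphatic vessels, 19 reads in all. Of the 14 tested, 0 passed edgeR's test and 1 reached an unadjusted p below 0.05 (5.97% of all genes tested did), the chemokine receptor Cx3cr1, with a log2 fold change of 1.89 ± 0.55 (SE). Ptprc, which encodes the pan-leukocyte antigen CD45, had 13 reads in all 5 libraries together. The 12 pan-leukocyte genes had a summed level between 173 and 263, with mean levels for Lsp1 (63.0), Arhgdib (53.1) and Lcp1 (38.3), and 1 of them, Cytip, had no read. These 3 were the highest, and 6 of the 12 had a mean level of at least 10. Mean levels were low for Rac2 (4.19), Coro1a (2.93), Vav1 (1.39) and Cd37 (1.07).

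The genes of the phagocyte lysosome and foam cell list include Lpl, a lipoprotein lipase (mean level 2124), the tetraspanin Cd63 (1876) and the protease Ctsl (1210), which many cell types express. The list's summed level was between 9631 and 11589 over the libraries, a ratio of 1.20, and of the 24 genes tested 0 passed edgeR's test and 1 reached an unadjusted p below 0.05, the secreted glycoprotein Spp1, against 5.97% of all genes tested. Of these 24, 9 had the ordering by library number and 5 the opposite one, against 27.6% and 34.6% of all genes tested. The list holds the markers Lyz2, Cd68 and Gpnmb. Lyz2, in which the ordering was noticed, is among the 9, so part of this count was fixed beforehand. Psap, a precursor of lysosomal activators, had 36.2 and 32.0 in the libraries numbered 1 and 115 and 129 in those numbered 2, with 132 in labeled replicate 3, while the lipid exporter Abca1 had 40.0 and 71.1 against 20.1 and 36.1.

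Markers of other leukocytes were few. The lymphocyte list had 1 read over its 9 genes present in the tables, and Cd3e, Cd79a and Ms4a1 had none. The dendritic cell and MHC class II list summed to between 0 and 5.93, with no read for Flt3, Xcr1, Clec9a and Cd209a. Of the monocyte and neutrophil list, Ly6c2, Chil3, S100a9, Retnlg and Cxcr2 had no read, and its sum of 379 to 413 came almost wholly from Hp (mean 353) and Plac8 (49.6). Kit was the only gene of the mast cell list above a mean of 1, while Cpa3 had 1 read. The endothelial list summed to between 635 and 992, with mean levels for Eng (417), Fabp4 (143) and Cdh5 (47.4), while Vwf had 1 read. The cardiomyocyte list summed to at most 9.04 and the Schwann cell list to at most 6.98. The fibroblast list summed to between 34917 and 46221, Col1a1, Col1a2 and Col3a1 among its genes, and all 12 of its genes were read in every library.

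**Figure D5:**
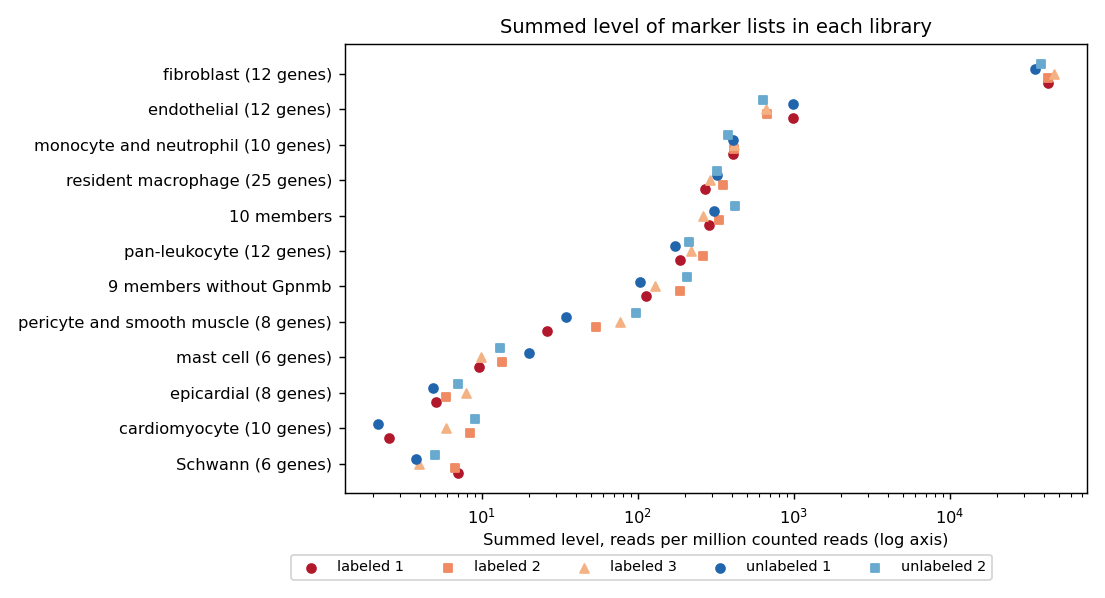
Summed level of marker lists in each library, in CPM over the counted reads (log axis). The 10 markers lie between 261 and 417 and the fibroblast list between 34917 and 46221. The lymphocyte list and the dendritic cell list, which were at 0 in at least 1 library, are left out.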

How the data were processed

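The 5 libraries were made with a 3′ end kit with unique molecular identifiers. The authors ran SLAM-DUNK 0.4.3 against mm39, took out duplicates and deposited, per interval, counts of reads, of covered T positions and of conversions. The deposited conversion rate is a fraction, and the deposited CPM divides reads by 7.58 to 28.9 times the reads counted on 1 interval per gene, so levels were recomputed. Repeated rows were used once, and ties went to the first interval. The T content of 40380 of 40380 intervals matched GRCm39.

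Reads were compared with edgeR 4.0.16 (TMM, filterByExpr, Benjamini-Hochberg), and T>C rates with a two-sided beta-binomial likelihood-ratio test (chi-square, 1 degree of freedom) on intervals where each library covered 1 or more T. On simulated counts this test called 187 of 200 changed and 185 of 2800 unchanged intervals at an unadjusted p below 0.05. P-values measure the spread between these libraries, and the labels do not name the animals. The members and lists were chosen with earlier results of these data known. Beside the members, the 3 highest genes of each list, genes passing a test, genes of the 3 pathways and the 12 nearest profiles were named, and further genes were chosen after their values were seen. Some genes of these lists are counted but not reported by name here. Scripts ran in Python 3.11.15 (matplotlib 3.10.9, numba 0.67.0, pandas 2.3.3, scipy 1.17.1, numpy 2.4.6) and R 4.3.3 (DESeq2 1.42.0, limma 3.58.1). The alternatives were thresholds on covered T positions, unadjusted p, limma on log odds (pseudocount 0.5), DESeq2, other scalings, filters, intervals and pseudocounts, the replicate number as a block, and each library left out. Leaving out Gpnmb alone, and the alternatives of the ordering by library number, were added after the data were seen.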

Additional observations from a re-analysis of the deposited data

How the results depend on the processing

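In none of the alternatives tried did a marker that could be called pass the test of its read level, and DESeq2 could call 3 of the 9 markers. The number of markers with a raised T>C rate was 9 of 10, 4 of the 4 that each library covered at 100 or more T positions and 1 of the 1 at 1000 or more, where fewer markers could be tested, and between 5 and 9 with each library left out. Limma on the log odds called 6. The shares of all intervals called were 99.6% and 99.9% at these coverages, 87.3 to 90.9% with a library left out and 94.8% in limma. The summed level in the labeled libraries, 293, was 25.0 in deposited CPM, which has a larger denominator, 226 with reads summed over intervals, where more reads enter the total, 142 without Gpnmb and 127 without Gpnmb and Cd68. The median T>C rate of the markers covered by at least 1000 T positions (Gpnmb alone, 0.0121) was 0.0219 over the 5 with at least 100, 0.0225 over all 10, 0.167 as a share of reads and 0.00438 with the unlabeled rate subtracted. The number of markers sharing a highest library was between 5 and 8 with each library left out. The ordering by library number held in 6 markers with TMM scaling and with reads summed over intervals, and in 4 on the deposited CPM.

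The direction of read levels that passed no test changed in places, and the cause was not tested. The log2 fold change of Lyz2 was -0.0195 with library size alone and -0.14 with the replicate block, that of Cd68 -0.0217 with library size alone, that of C1qb -0.0223 with DESeq2 and -0.0242 with library size alone, and that of Tyrobp 0.0279 with the replicate block. With each library left out it ran from -0.93 to 2.35 for Lyz2, -0.24 to 0.52 for Cd68 and -0.47 to 0.14 for C1qa. For C1qb it ran from -0.78 to 1.51, for Tyrobp from -1.04 to 1.38 and for Fcer1g from -0.65 to 1.76. Tyrobp was not among the 8 markers tested without labeled replicate 2, so its range does not cover that setting. With the replicate number as a block, 0 markers and 1145 of 9807 genes passed, against 0 genes without it, and Csf1r had an adjusted p of 0.0616. Deviations of same-numbered libraries correlated at 0.784 and 0.638 across genes. Both values rest on the 1 difference between the unlabeled libraries and are not independent, and the labels do not say what a number marks. Depth limited the markers other than Gpnmb to between 1 and 59 reads per library.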
